A study of Mus musculus with 18 samples.

Results

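Thrsp and 9 genes of fatty acid synthesis and its control (Fasn, Acaca, Acacb, Acly, Scd1, Scd2, Elovl6, Me1 and Mlxipl) were followed in the medial prefrontal cortex of mice fed the drug PLX5622 or a control chow. These 10 genes are 10 of the 54547 Ensembl identifiers counted, and all 10 were matched by identifier. Thrsp was chosen by its measured values, since it was higher with PLX5622 in these same libraries, so its diet difference is given as a description. The other 9 were picked for what they are known to do, but with earlier results of these data known.

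PLX5622 inhibits CSF1R, a receptor that microglia, the resident macrophages of the brain, need to survive. The 9 libraries of each diet came from C57BL6/J mice at postnatal day 100, with sex not given. Control animals had control chow and the others chow with PLX5622 at 1200 mg/kg. According to the treatment text, shared word for word by all 18 libraries, a 21-day diet preceded 44 days of every-other-day drinking (15% ethanol), and tissue was taken 24 hours after the last ethanol. That text names PLX5622 on control animals too, so it does not tell the groups apart, and no library is labelled as ethanol-free. An abbreviation common to all 18 table names is not explained. The chow reaches the whole animal, and tissue homogenate mixes all cell types, so fewer cells of a type and less RNA per cell cannot be told apart. The animal numbers in the titles are all different, but litters and cages are not given, so p-values measure the spread between these animals.

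Cells build fatty acids in the cytosol from acetyl-CoA, which ATP citrate lyase (Acly) cuts from citrate. Acetyl-CoA carboxylase (Acaca, Acacb) makes malonyl-CoA, fatty acid synthase (Fasn) joins these units into palmitate with NADPH that malic enzyme (Me1) helps to supply, Elovl6 lengthens palmitate and the stearoyl-CoA desaturases (Scd1, Scd2) add a double bond. Thrsp (Spot 14), first found as a thyroid hormone response gene of liver, encodes a small acidic protein that promotes lipogenesis, and Mlxipl encodes ChREBP, a transcription factor that turns on lipogenic genes when glucose is plentiful. In brain the products feed membranes and myelin.

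Libraries held 990136 to 1742680 counts (median 1384979), so that 1 count was worth 0.574 to 1.01 CPM (a count scaled to a common library total of 1e6) before further scaling. Of 11051 genes that passed the count filter, 5 were called higher with PLX5622 (0.0452%) and 39 lower (0.353%), at a Benjamini-Hochberg adjusted p under 0.05 in edgeR's quasi-likelihood test. The microglial marker list fell: all 10 of its genes were called lower, and their summed level was 382 to 555 CPM in controls and 104 to 186 CPM with PLX5622, which is 31.5% of the control mean (exact permutation test, two-sided, adjusted p = 0.00037 over 9 marker lists). Summed levels of astrocyte, myelinating oligodendrocyte, oligodendrocyte precursor, neuronal, endothelial and meningeal lists overlapped between the diets (exact permutation test, adjusted p from 0.626 to 0.979), and none of their genes was called.

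Thrsp was higher in PLX5622 libraries. It ranged from 8.92 CPM in control 9 to 16.98 CPM in control 10, with a median of 14.5 CPM, and from 14.6 CPM in PLX5622 32 to 41.6 CPM in PLX5622 35, with a median of 19.2 CPM. The groups overlapped: 7 of 9 PLX5622 libraries lay above the highest control, 5 of 9 controls lay below the lowest PLX5622 library, and the other libraries shared the range between. Means were 13.5 ± 2.9 CPM in controls and 21.7 ± 8.1 CPM with PLX5622 (SD, n = 9 each), a fitted difference of 0.71 ± 0.17 (log2, SE), or 1.63-fold. These are the values by which the gene was chosen.

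The counts behind Thrsp were few, 14 to 61 per library and 433 in all. Counting error alone gives a coefficient of variation of 23.7% at the mean control count and 18.2% at the mean PLX5622 count. The observed values were 21.2% in controls, no more than counting error, and 37.2% with PLX5622. PLX5622 35, with 61 counts, stood apart from the other 8 libraries of its diet, which averaged 19.2 ± 3.2 CPM (SD) with the next highest, PLX5622 26, at 25.7 CPM. Without PLX5622 35 the difference was 0.52 ± 0.15 (log2, SE), and 6 of the remaining 8 libraries lay above the highest control. That library also had the lowest microglial sum of its diet (104 CPM), the highest astrocyte sum (4024 CPM against a median of 3675 CPM) and the lowest adipocyte sum, and their part in its Thrsp level was not tested. Counted from the highest of its diet, PLX5622 35 ranked 1 for Acly (137.1 CPM) and for Acacb (11 counts), 2 for Me1, 4 for Elovl6, 6 for Fasn and for Mlxipl, 7 for Scd2, 8 for Scd1 and 9 for Acaca.

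**Figure D1:**
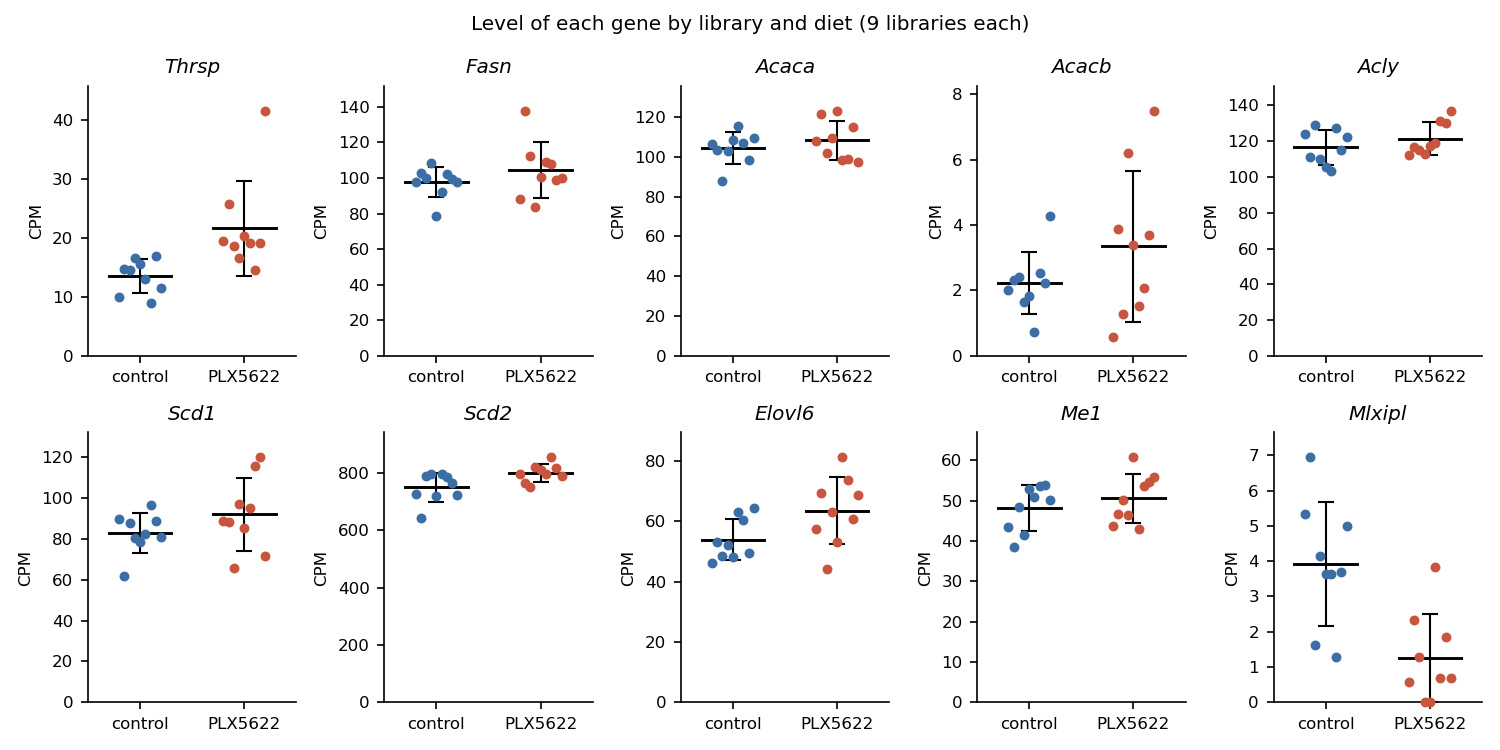
Level of each of the 10 genes in CPM (y axes from 0, a separate scale per gene) by diet, where each point is 1 of 9 libraries per diet, placed by animal number, the bar is the mean and the whisker 1 SD. Thrsp reaches 41.6 CPM in 1 PLX5622 library, the enzyme genes overlap widely between the diets, and Mlxipl lies lower in PLX5622 libraries.

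The adjusted p by which Thrsp was picked, 0.022, was the largest among the 5 genes called higher, and Arntl, at 0.067, was the first gene outside. Leaving out 1 library raised it above 0.05 for 5 of 18 libraries, to 0.071 without control 2, 0.0698 without control 9, 0.056 without control 11, 0.054 without PLX5622 26 and 0.182 without PLX5622 35. It was 0.070 with DESeq2, 0.051 with limma-voom and 0.209 with every library thinned to the smallest total, while the log2 difference stayed between 0.52 and 0.77 over all these settings.

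The Thrsp gene (ENSMUSG00000035686.8) lies on the minus strand of chromosome 7 at 97412938 to 97417730 in GENCODE M21 (GRCm38), with no annotated gene overlapping it on either strand. Counts are per whole gene, so no exon or UTR can be assigned to them. Its 4 tested neighbours had smaller differences. Ndufc2, a subunit gene of respiratory complex I, lies on the opposite strand, with its end 5136 bases from the 3' end of Thrsp. Ndufc2 was at -0.005 ± 0.072 (log2, SE, edgeR adjusted p = 0.998). Kctd21 was at 0.05 ± 0.16, Ints4 at 0.03 ± 0.12 and Aamdc at -0.03 ± 0.11. None of these 4 was called, where 0.398% of all tested genes were. Alg8 and Kctd14 did not pass the count filter. Alg8 averaged 6.03 CPM in controls and 5.34 CPM with PLX5622, and Kctd14 4.21 and 3.05 CPM. For Kctd14, 5 PLX5622 libraries lay below the lowest control and 0 above the highest. For Alg8 these numbers were 4 and 1.

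Short promoter stretches are shown because NF-Y and SREBP are known to bind close to the start sites of many lipogenic genes. Elements for ChREBP and the thyroid hormone receptor can lie much farther away, where these windows do not reach. RefSeq windows on GRCm38.p6, from 250 bases before to 50 bases after a start site, were in hand for 8 of the 10 genes (10 windows), all but Scd1 and Scd2. The NF-Y box CCAAT, searched on both strands, occurred in windows of 6 of these 8 genes, Thrsp, Fasn, Acacb, Acly, Me1 and Mlxipl. Counted per window it was in 6 of their 10 windows and in 37.4% of all 32851 windows. The Acacb and Me1 windows that held it lie wholly inside the GENCODE spans of those genes, given below. The Acly match lies 37 bases after the start. Thrsp and Fasn each held it in both orientations within 100 bases of the RefSeq start. For Thrsp that start lies inside the GENCODE span given above, and so do both of its stretches. The stretches below run 5′ to 3′ along the gene's strand, with the match in capitals and CCAAT on the opposite strand reading ATTGG.
Thrsp, 79 bases before the start, chr7:97417615-97417638, minus strand: aacgctgggATTGGctcaaaacag
Thrsp, 52 bases before the start, chr7:97417588-97417611, minus strand: tgtgttgctCCAATggttgggctt
Fasn, 90 bases before the start, chr11:120824623-120824646, minus strand: cgcgccgccATTGGgccaccgaga
Fasn, 62 bases before the start, chr11:120824595-120824618, minus strand: cctcggtgtCCAATtggtttcgat
Mlxipl, 98 bases before the start, chr5:135089783-135089806, plus strand: gctgccatcCACGTGctaaggaga
Mlxipl, 136 bases before a second start, chr5:135106748-135106771, plus strand: agtggttTCACACCACgctcactg

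The Fasn match at 62 bases overlaps one on the other strand at 59 bases. The last pair of stretches shows the E-box CACGTG, present in 7.15% of all windows, and the sterol regulatory element TCACNCCAC, in 1.24%, and among the windows of the 8 genes each occurred only in Mlxipl. Searched in its exact consensus form, the carbohydrate response element, a spaced pair of these same E-boxes, was in 0 of the 32851 windows, and the thyroid hormone element of the DR4 kind was in 5 of them (0.0152%) and in none of these genes. A match is letters in a window and not a bound site, and the absence of one says nothing of sites outside the window.

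The tested enzyme genes had fitted diet differences of at most 0.22 (log2). Of the 9 genes other than Thrsp, 7 passed the count filter, and none was called higher or lower, where 0.0452% of all tested genes were called higher and 0.353% lower. All 7 had positive values, from 0.05 to 0.22 (log2), with a median of 0.09, where 5529 of the 11051 tested genes (50%) were positive and the median was 0.00. Elovl6 and Scd2 had an unadjusted p under 0.05, where 394 of all tested genes (3.57%) did in that direction. Single libraries moved several of these small values by over 1.5 times. The lowest were 0.036 for Fasn without PLX5622 26, 0.020 for Acaca without control 4, 0.033 for Acly without PLX5622 35, 0.035 for Me1 without control 3 and 0.079 for Scd1 without PLX5622 34, all still positive and uncalled.

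Acly (ENSMUSG00000020917.17, chromosome 11, 100476353 to 100528000, minus strand), the supplier of acetyl-CoA, was at 103 to 129 CPM in controls (median 115) and 112 to 137 CPM with PLX5622 (median 117). Its difference was 0.06 ± 0.06 (log2, SE, edgeR adjusted p = 0.942), and the 95% interval of the fold ran from 0.95 to 1.14. Acaca (ENSMUSG00000020532.18, chromosome 11, 84129672 to 84401651, plus strand), the main acetyl-CoA carboxylase of lipogenic tissue, was at 87.9 to 115.5 CPM (median 106) and 97.5 to 123.2 CPM (median 108). Its difference was 0.05 ± 0.06 (adjusted p = 0.959, interval 0.94 to 1.14). For both enzymes the diets overlapped over most of their range, and changes of more than 1.14-fold lie outside the intervals.

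Fasn (ENSMUSG00000025153.9, chromosome 11, 120805846 to 120824547, minus strand), the synthase itself, was at 78.5 to 108.5 CPM in controls (median 99.7) and 83.7 to 137.9 CPM with PLX5622 (median 100.5). The highest value was in PLX5622 26. The difference was 0.09 ± 0.07 (log2, SE, edgeR adjusted p = 0.885), with a fold interval of 0.96 to 1.18. Me1 (ENSMUSG00000032418.15, chromosome 9, 86581371 to 86695953, minus strand), which yields NADPH, was at 38.6 to 53.9 CPM (median 50.04) and 43.0 to 60.8 CPM (median also 50.04), a difference of 0.07 ± 0.09 (adjusted p = 0.958, interval 0.92 to 1.20).

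Elovl6 (ENSMUSG00000041220.10, chromosome 3, 129532355 to 129638495, plus strand), the elongase that turns palmitate to stearate, had the largest value among the enzymes tested. It was at 46.1 to 64.3 CPM in controls (median 52.2) and 44.3 to 81.3 CPM with PLX5622 (median 63.1), and 8 of 9 PLX5622 libraries lay above the control median. The lowest library of all, PLX5622 27, was on the side of the higher group, and 4 PLX5622 libraries exceeded every control. The difference of 0.22 ± 0.09 (log2, SE), or 1.17-fold with an interval of 1.02 to 1.34, did not pass over all genes (edgeR adjusted p = 0.568).

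Scd2 (ENSMUSG00000025203.5, chromosome 19, 44293674 to 44306864, plus strand), the main desaturase gene of brain, had by far the most counts of the set (19056) and so the narrowest error. It was at 642 to 799 CPM in controls (median 764) and 753 to 856 CPM with PLX5622 (median 798), with all 9 PLX5622 libraries above the control mean of 750 CPM. The difference was 0.09 ± 0.04 (log2, SE, edgeR adjusted p = 0.615), 1.07-fold with an interval of 1.005 to 1.13. Scd1 (ENSMUSG00000037071.2, 44394455 to 44407879 of that chromosome, minus strand), the desaturase best known from liver and fat, was at 61.8 to 96.2 CPM (median 82.1) and 65.4 to 119.9 CPM (median 88.6), a difference of 0.14 ± 0.09 (adjusted p = 0.853, interval 0.96 to 1.27). Scd1 and Scd2 are close paralogs that lie near each other on chromosome 19, and how reads fitting more than 1 gene were counted is not given, so the split between them is uncertain.

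**Figure D2:**
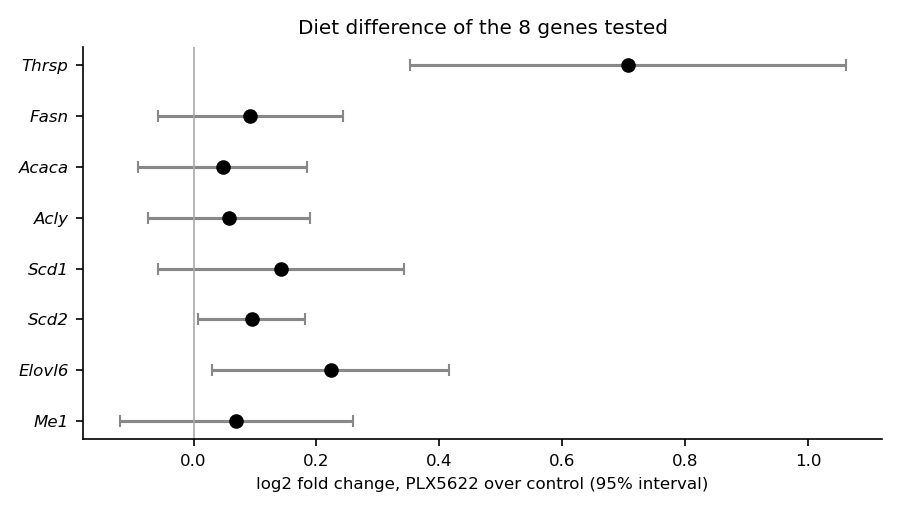
Log2 fold change of PLX5622 over control for the 8 genes that passed the count filter, with 95% intervals (16 degrees of freedom, n = 9 per diet). Thrsp is at 0.71 and was chosen for this difference, so its interval is a description and not a test. The 7 enzymes lie between 0.05 and 0.22.

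The regulator Mlxipl and the second carboxylase gene Acacb were too sparse for the count filter. Mlxipl (ENSMUSG00000005373.13, chromosome 5, 135089890 to 135138382, plus strand) had 47 counts in controls and 16 with PLX5622. Per library, controls held 2 to 9 counts (median 5) and PLX5622 libraries 0 to 5 (median 1), with 2 PLX5622 libraries at 0. All 9 PLX5622 libraries lay below the control mean, and 5 lay below the lowest control. The mean was 3.92 ± 1.77 CPM in controls and 1.252 ± 1.245 CPM with PLX5622 (SD, n = 9 each), 3.13-fold lower (exact permutation test of the mean, two-sided p = 0.0026, unadjusted, 2 genes tested in this way). Leaving out any 1 library kept this p between 0.00095 and 0.0053.

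Adjusted over all genes, Mlxipl depended on the method. With no count filter edgeR put it at -1.54 ± 0.40 (log2, SE, adjusted p = 0.032 over 24284 genes), where it was 1 of 92 genes called lower, and DESeq2 at -1.62 ± 0.49 (adjusted p = 0.174 over 18163 genes). Mlxipl was thus at 31.9% of its control level while the microglial list stood at 31.5% of its own, and the part of microglial RNA in the Mlxipl counts was not tested. Its direction was opposite to that of Thrsp. Acacb (ENSMUSG00000042010.16, chromosome 5, 114146535 to 114250761, plus strand), the carboxylase isoform tied to the control of fatty acid oxidation, had 27 and 40 counts, 0.73 to 4.29 CPM in controls and 0.59 to 7.501 CPM with PLX5622. The diets overlapped, and this difference was within the spread of the libraries (p = 0.203 in the same two-sided exact permutation test).

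Markers of 2 other tissues that could add Thrsp were set beside it, since fat expresses Thrsp strongly and choroid plexus can be taken up in dissection. On the adipocyte list Adipoq, Lep and Cfd were at 0 in all 18 libraries, and Plin1 had 2 counts and Cidec 1. Cidea had 13 counts in controls and 20 with PLX5622, and Retn 12 and 15. Of the 283 counts of the list, 220 came from Pnpla2, a lipase gene used in many cell types. The list summed to 5.72 to 14.5 CPM in controls and 7.501 to 16.04 CPM with PLX5622 (exact permutation test, adjusted p = 0.626). Of its 8 genes 1 was tested and none called, where 0.398% of all tested genes were called. Choroid plexus markers summed to 3.82 to 14.3 CPM and 8.86 to 42.2 CPM, the second mean being 231% of the first (exact permutation test, adjusted p = 0.018), with 1 of 7 genes tested, none called and none at 0. Most of those counts, 244 of 344, were from Ttr, at 62 in controls and 182 with PLX5622. The other markers were sparse and went both ways. Folr1 (5 and 4 counts), Kcne2 (5 and 2) and Aqp1 (2 and 1) had fewer with PLX5622. Kl (18 and 29), Clic6 (10 and 17) and Slc4a5 (2 and 5) had more. PLX5622 35, highest for Thrsp, was the seventh of 9 for the choroid plexus sum, at 10.9 CPM, which is the rank of 1 library only. The part of either tissue in the Thrsp level was not tested.

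Genes next to this pathway were read from 6 lists of 95 genes, of which 80 were tested. None was called higher or lower by diet (0.398% of all tested genes were, in either direction), 4 had an unadjusted p under 0.05 (6.79% of all tested genes) and 44 were positive (50% of all). Of 16 genes that control lipogenic transcription 15 were tested, 9 with positive values and a median of 0.003 (log2). Srebf1, which encodes the SREBP-1 factors that drive Fasn and Scd genes, was at 0.00 ± 0.16 (log2, SE, edgeR adjusted p = 0.999). Mid1ip1, the paralog of Thrsp whose protein helps acetyl-CoA carboxylase to form filaments, was at 0.12 ± 0.10 (adjusted p = 0.897), and Mlx, the partner of ChREBP, at 0.11 ± 0.14 (adjusted p = 0.958). The smallest p values of the list were those of Srebf2, at 0.18 ± 0.05 (adjusted p = 0.211), Insig1, a feedback inhibitor of SREBP release, at 0.38 ± 0.14 (adjusted p = 0.483), and Usf1 at 0.18 ± 0.14 (adjusted p = 0.885). Srebf1, Mid1ip1 and Mlx here, and G6pdx, Pgd, Thra, Thrb, Klf9 and Dio2 below, were named for what they do after their values were seen.

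All 14 genes of acetyl-CoA and NADPH supply were tested, 10 positive, with a median of 0.05. Acss2, which makes acetyl-CoA from acetate, was at 0.21 ± 0.08 (log2, SE, edgeR adjusted p = 0.534), Idh1, a cytosolic NADPH source, at 0.21 and Pdhb at 0.16. The pentose phosphate genes G6pdx and Pgd, further sources of NADPH, were at -0.17 and -0.18. Of 16 other elongation and desaturation genes 13 were tested, 9 positive, with a median of 0.04. Elovl7 was at -0.26, Fads1, the delta-5 desaturase, at 0.09 and Hsd17b12 at 0.12.

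Of 18 genes for acyl-CoA activation and glycerolipid synthesis 13 were tested, 6 positive, with a median of -0.005. Acsl1, a long-chain acyl-CoA synthetase, was at -0.22 ± 0.08 (log2, SE, edgeR adjusted p = 0.406), Agpat3 at 0.12 and Acsl5 at -0.12. Fatty acid oxidation had 12 of 16 genes tested, 3 positive and 9 negative, with a median of -0.09. Acadl was at 0.25, Cpt1c at -0.17 and Hadha, of the mitochondrial trifunctional protein, at -0.16, and the smallest adjusted p of that list was 0.767. Thyroid hormone genes were the tightest of the lists, with 13 of 15 tested, values from -0.12 to 0.09 and a median of 0.005. The receptor genes Thra and Thrb were at -0.02 ± 0.04 and -0.02 ± 0.05 (adjusted p = 0.971 and 0.988), the hormone-induced gene Klf9 at 0.02 ± 0.05 and Dio2, which activates the hormone, at 0.06 ± 0.08. Crym and Slco1c1 were at 0.09 and -0.12.

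**Figure D3:**
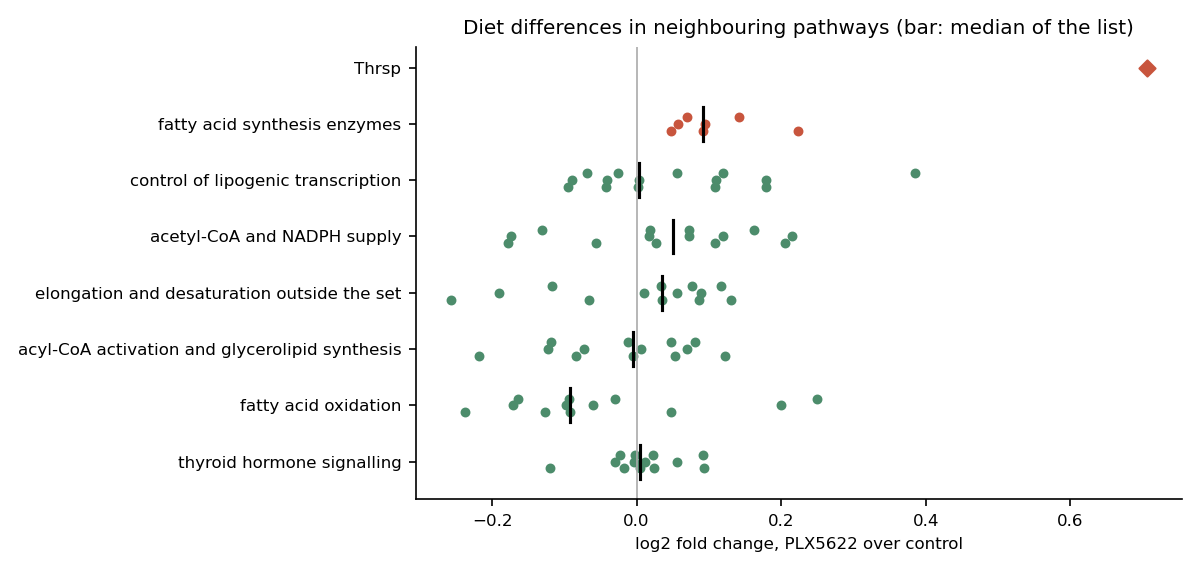
Log2 fold change of PLX5622 over control (x axis) for every tested gene of 6 neighbouring pathway lists, the 7 tested enzymes and Thrsp (diamond), with a bar at each list's median. List medians lie between -0.09 and 0.09, and Thrsp at 0.71 was chosen for its difference.

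Only the order of animals within a diet is independent of the diet difference. Across the series the numbers ran from 2 to 11 in controls and from 25 to 35 with PLX5622. Anything that follows the number between the groups therefore cannot be told apart from diet. Animal numbers were ranked 1 to 9 within each diet and a slope per position was fitted beside diet. Across all genes 18 slopes were called upward (0.163%) and 16 downward (0.145%), and none of the 8 tested members was among them. Thrsp had a slope of 0.04 ± 0.03 per position (log2, SE, edgeR adjusted p = 0.734). Elovl6 and Me1 had slopes of 0.04 ± 0.02 each (edgeR adjusted p = 0.383 each). Fasn and Acaca were at -0.0072 and -0.0033. Of the 7 enzymes 5 had positive slopes, where 50.3% of all tested genes did. The median slope was 0.018 for the enzymes and 0.00014 over all tested genes. Among the 80 tested genes of the lists Tecr, an enzyme of the elongation cycle, had a called slope of -0.04 ± 0.01 (adjusted p = 0.035). With position in the fit Thrsp differed between the diets by 0.71 ± 0.16.

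**Figure D4:**
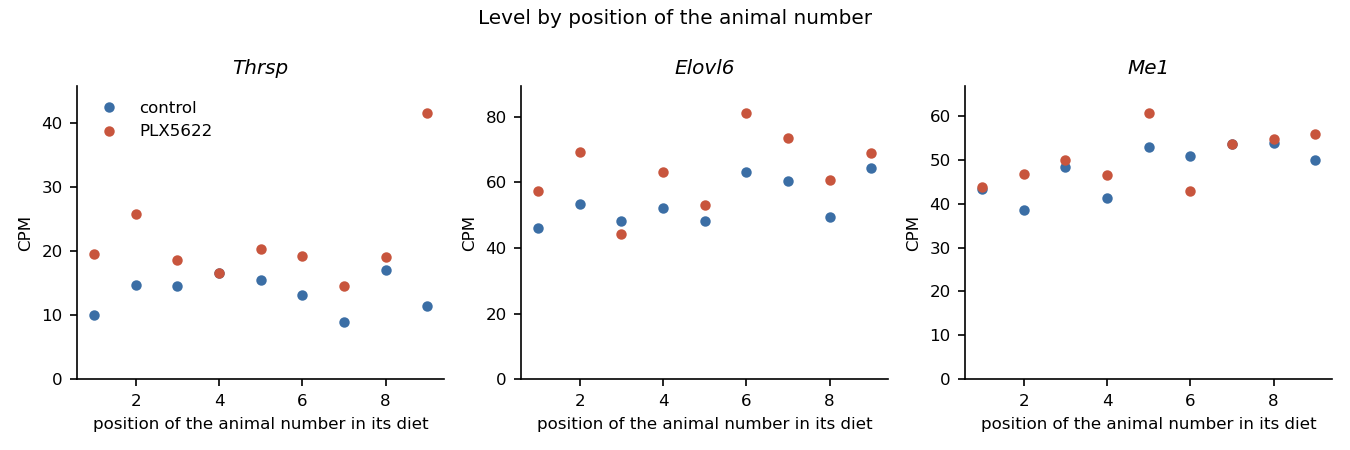
Level of Thrsp, Elovl6 and Me1 in CPM (y axes from 0) against the rank of the animal's number in its diet, 9 animals per diet, each point 1 library. Elovl6 and Me1 have slopes of 0.04 on the log2 scale per position, which were not called after adjustment over all genes.

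Whether Thrsp moved with the enzymes from animal to animal was examined within each diet, where the diet difference plays no part. None of 14 relations between Thrsp and the 7 tested enzymes passed, and 4 of the 14 had a positive Pearson's r. The strongest were with Acly in controls (r = -0.57, exact permutation p = 0.116, adjusted 0.539 over 32 relations; rho = -0.48, exact p = 0.194, adjusted 0.477; n = 9) and with Scd1 in PLX5622 libraries (r = -0.54, exact permutation p = 0.138, adjusted 0.539; rho = -0.55, exact p = 0.133, adjusted 0.477; n = 9). Without the 2 libraries farthest from the Thrsp median these were -0.22 and -0.42. Others grew in size on leaving out those libraries. Elovl6 in controls went to -0.83 from r = -0.38 (exact permutation p = 0.308, adjusted 0.643; rho = -0.27, exact p = 0.4933, adjusted 0.793; n = 9), and Scd2 with PLX5622 to -0.61 from r = -0.45 (exact permutation p = 0.227, adjusted 0.643; rho = -0.57, exact p = 0.121, adjusted 0.477; n = 9). Among 18 relations with marker lists the largest r was with astrocytes in PLX5622 libraries (r = 0.78, exact permutation p = 0.038, adjusted 0.434; rho = 0.42, exact p = 0.270, adjusted 0.616; n = 9). It was -0.23 without the 2 farthest libraries and so rests on them. In controls Thrsp also had r of 0.65 with the adipocyte sum, 0.64 with the meningeal sum and 0.63 with the choroid plexus sum (exact permutation p = 0.057, 0.066 and 0.068, adjusted 0.434 each; rho = 0.67, 0.77 and 0.60 with exact p = 0.059, 0.021 and 0.097, adjusted 0.477 each; n = 9). In the same order these were 0.70, 0.86 and 0.08 without the 2 farthest libraries, and -0.49, 0.04 and -0.21 in PLX5622 libraries. The neuronal sum in controls went the other way (r = -0.64, exact permutation p = 0.062, adjusted 0.434; rho = -0.67, exact p = 0.059, adjusted 0.477; n = 9), at -0.79 without the 2 farthest libraries and 0.35 in PLX5622 libraries. None of the 32 relations passed after adjustment, and the part of these cell types in the Thrsp level was not tested.

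With each diet's mean removed, the 7 enzymes had a median pairwise r of 0.17 over 18 libraries, 14 of 21 pairs being positive. Pairs of all 5767 genes averaging 50 counts or more had a median of -0.00075, with 8295905 of 16626261 positive. The highest was that of the paralogs Scd1 and Scd2 (0.67) and the lowest that of Acaca and Acly (-0.44). Shared reads between the paralogs were not tested as a part of the first. Both desaturase genes also had the highest r of the set with the summed myelin markers, 0.60 for Scd1 and 0.56 for Scd2. Elovl6 was at 0.39, Acly at 0.15, Me1 at 0.005, Acaca at -0.18, Fasn at -0.38 and Thrsp at -0.39. These correlations share library and depth and are a description.

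**Figure D5:**
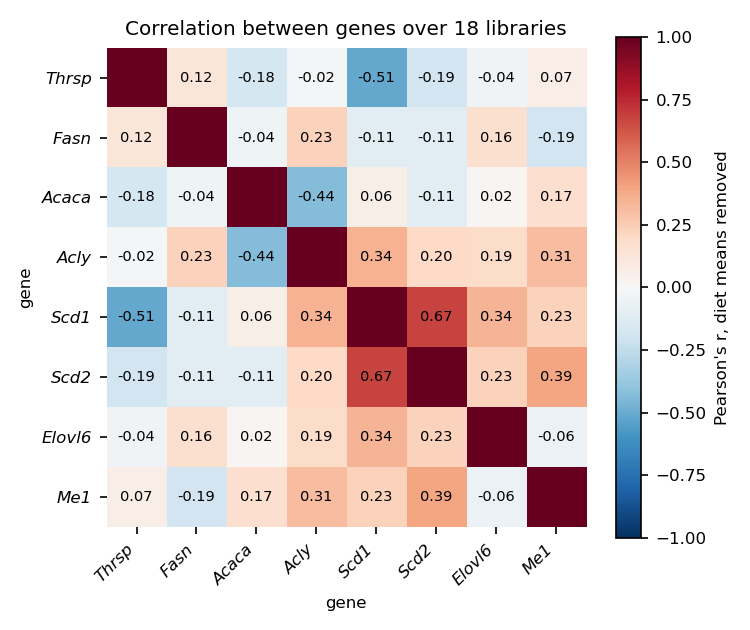
Pearson's r between the 8 tested genes over 18 libraries after removal of each diet's mean (colour from -1 to 1, value in each cell off the diagonal). Scd1 and Scd2 stand at 0.67 and Thrsp with Scd1 at -0.51, with most other pairs nearer 0.

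The genes most like Thrsp over the 18 libraries by the same measure, out of 10989 ranked, were Tpcn1, a lysosomal cation channel gene (r = 0.83), Asrgl1, an asparaginase gene (0.81), Prex2, a Rac exchange factor gene (0.72), Dbndd1 (0.71) and Igsf9b, a synaptic adhesion gene (0.71). None was called by diet, where 0.398% of all tested genes were. Their log2 values by diet were 0.10, 0.06, 0.06, -0.06 and 0.06 (edgeR adjusted p from 0.926 to 0.989). Without PLX5622 35 the 5 values of r were 0.68, 0.62, 0.37, 0.60 and 0.43, so a part of the likeness rests on that library. Of the enzymes Fasn ranked highest, at rank 3570 with r = 0.12, and Scd1 was at -0.51, or -0.38 without PLX5622 35.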

How the data were processed

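Each library has 1 table of whole-number counts per Ensembl gene, as the authors deposited it, from 3'-biased single-end sequencing per the labels' protocols. The tools listed in the submitters' processing notes are HTSeq 0.11.0, R 3.5.1, Bowtie2 2.3.4.3, FastQC 0.11.8 and DESeq2 1.10.1, with builds mm10 and GRCm38.p6. The sources used here do not state strand setting, counted feature or duplicate removal. Identifiers without version were matched to GENCODE M21 (53706 matched, the other 841 holding 0.0278% of counts).

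The main test was edgeR 4.0.16 (R 4.3.3), quasi-likelihood and robust, after filterByExpr (a minimum count of 10 and total of 15) and TMM scaling, adjusted by Benjamini-Hochberg over all tested genes. CPM use TMM-scaled totals, and log2 CPM a prior count of 2. The fit was tested on simulated data. There it recovered 36% of genes changed 1.25-fold, 82% of those changed 1.5-fold and 100% of those changed 2-fold. Of its 170 calls 12 were false. Alternatives used DESeq2 1.42.0, limma-voom (limma 3.58.1), other scalings and filters, a position covariate, thinning, and each library left out. Groups come from titles and chow labels. Genes named are the 10 members, up to 3 of smallest p per list (1 of these is not reported here), the 5 most like Thrsp, its nearest genes with counts, the marker with most counts and those at 0 in a list, and called genes of the lists. Arntl, Plin1, Cidec, Cidea, Retn and the choroid plexus markers other than Ttr, like those so marked in the results, were named after their values were seen. Members and lists were chosen with earlier results of these data known.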

Additional observations from a re-analysis of the deposited data

Results flagged for a closer look

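Thrsp in PLX5622 35 stood at 41.59 CPM, far above the next library of its diet at 25.7 CPM. Of 20 groups of 9 libraries examined, 10 genes in each diet, it was the 1 group with such a gap, and chance marks about 1 in 20.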

How the results depend on the processing

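All 7 tested enzymes kept their positive sign and stayed uncalled in each of 27 alternatives, with a median between 0.07 and 0.11 (log2). Of the 9 genes other than Thrsp, 0 were called higher in any alternative, and 1 was called lower, Mlxipl, when no count filter was used. The log2 value of Thrsp stayed between 0.52 and 0.77 in the 26 alternatives in which it could be fitted. These refit the libraries by which it was chosen, so the range is a description. Its call was lost in 5 of 18 fits with 1 library left out and in 3 of 8 other settings. A mean of at least 50 counts removes Thrsp.

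Over all genes, 65 were lower with DESeq2, 92 with no count filter and 8 at a mean of at least 50 counts, against 39. Higher genes numbered 14 with limma-voom, 20 with no count filter, 0 at a mean of at least 50 counts (with the usual filter 394 had an unadjusted p under 0.05 by edgeR, and DESeq2 called 7) and 17 with position as a covariate, against 5. Leaving out 1 library gave 38 to 50 lower and 2 to 13 higher. Called slopes numbered 22 with DESeq2, 74 with no count filter and 19 at a mean of at least 50 counts, against 34, and 18 to 72 with 1 library left out. The causes were not tested. Without the 2 libraries farthest from the Thrsp median, r changed sign for Fasn (0.10), Scd1 (0.079) and Scd2 (0.13) in controls and for Fasn (-0.017), Acaca (0.51), Acly (-0.41), Elovl6 (-0.40) and Me1 (-0.00069) with PLX5622.

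No paired analysis was possible because the diets share no animal numbers. At 14 to 61 counts per library, depth limits Thrsp, and 0 to 9 counts limit Mlxipl further.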
